A study of Mus musculus with 18 samples.

Results

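The Prss genes are mouse genes named as serine proteases, most of them of the trypsin fold. They were followed here in round spermatids (RS), the haploid germ cells that elongate into sperm. A gene was a member if its symbol was Prss followed by a digit and it was not a pseudogene, which gave 40 of the 54232 genes in the count table, 39 of them protein-coding and 1 an antisense RNA, Prss23os. RNA was sequenced from RS of wild-type (WT) mice, of mice with a knock-out of the RNA helicase GRTH, encoded by Ddx25 (KO), and of mice with a GRTH knock-in (KI), all 75 to 85 days old, with 6 libraries per genotype. The study describes the KI mice as carrying the human GRTH gene with a missense mutation that removes the phosphorylated form of the protein. It describes RS of both mutants as failing to elongate. Nothing in the labels says that the 6 libraries of a genotype came from 6 separate animals, so p-values measure the spread between these libraries, which may be partly technical.

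Serine proteases cut proteins with a catalytic triad of histidine, aspartate and serine, and most are made as inactive precursors. In the testis several are made in spermatids and stored in the acrosome, the secretory vesicle that covers the sperm head, or placed on the sperm surface by a lipid anchor, and some take part in sperm migration through the oviduct and in binding to the egg coat. Other family members lack the catalytic serine and are thought to act without cutting. Still others belong to pancreas, blood cells, brain or uterus.

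The codons around the catalytic serine are shown because they divide the family in a way that the symbols do not. Coding sequences of the 39 coding members were taken from GENCODE M21 on GRCm38 and searched for codons for glycine, aspartate, serine and glycine followed by glycine or alanine. This run was found in 26 of the 39, and in 15 of the 24 coding members with enough counts to be tested. The serine codon began with TC in 22 of the 26 and with AG in 4, which were Prss12 and the chromosome 14 neighbours Prss51, Prss52 and Prss55. Each stretch below is 27 bases of coding sequence, 5′ to 3′, and the capitals mark the codon at the position of the serine. Prss39 and Prss40 are neighbours on chromosome 1, Prss44 lies on chromosome 9 and Prss53 on chromosome 7. Prss45, in the same cluster as Prss44, has a proline codon there. Prss38 keeps the serine codon and the glycine after it, but has a serine codon in place of the last glycine or alanine.
Prss39: tgccgaggagacTCTgggggccccctg
Prss40: tgcgcaggagatTCTgggggccccctt
Prss44: tgccagggagatTCTgggggccccctg
Prss53: tgccagggagatTCTgggggacctgtg
Prss51: tgccagggagacAGCggggcacccatg
Prss52: tgccagggcgacAGTggaggagctctc
Prss55: tgccagggtgacAGTgggggaccgctt
Prss38: tgtgagggtgacTCTggcagtccactg
Prss45: tgctatggagacCCCggggggccattg
No such run was found in the reference coding sequences of Prss35, Prss37, Prss43, Prss46, Prss50, Prss54 or Prss58, which were also tested. Each printed stretch crosses an exon junction, at exons 4 and 5 of the transcript used for Prss39 (chr1:34502191-34502644) and for Prss52 (chr14:64112619-64113487), and at exons 5 and 6 for Prss53 (chr7:127888494-127888651).

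The libraries held 18766971 to 26776555 counts on genes. Ddx25 had 567 ± 24.7 CPM (counts scaled to library size, with SD, n = 6) in the WT group, 70.0 ± 14.8 in the KO group, and 0.0456 to 0.519 in 5 KI libraries. These are counts on the mouse gene, and expression of the human gene described in KI mice was not measured. The library labelled KI 4 had 56.9 CPM, inside the KO range of 47.7 to 90.9, so for members called in KI values are also given without it. It was also the closest library to KO 2, with a median squared difference over genes of 1.59 times that of counting noise. Of the pairs of libraries of the same genotype, 6 stood at 2.12 to 3.02 times, against 4.64 or more for all other pairs. Of the marker lists, all 8 elongating spermatid genes were lower in KO and in KI, with a summed level of 14526 to 20217 CPM in WT, 1681 to 4277 in KO and 2244 to 3466 in KI. All 5 Leydig cell genes were higher in both, at a sum of 9.68 to 19.7 CPM in WT, 29.6 to 51.0 in KO and 13.2 to 65.7 in KI. The summed level of the 8 round spermatid genes was 616 to 1065 CPM in WT, 527 to 1030 in KO and 485 to 727 in KI. No marker in these lists was at or below 3 counts in every library. The part of other cells in the results for Prss genes was not tested, and in such bulk samples fewer cells of a type and less RNA per cell cannot be told apart.

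Of the 40 members, 25 had enough counts to be tested and 15 did not. Of those 15, 9 had 3 counts or fewer in every library, which was taken as the floor, and 3 of these had none at all. Those 3 were Prss28 and Prss29, known as implantation serine proteases of the uterus, and Prss34. The pancreatic trypsin Prss1 reached 1 count and Prss3 also reached 1, while Prss2 had 0 counts in all WT libraries and at most 5 in the mutants. Prss22, Prss27, Prss30 and Prss57, a neutrophil protease, stayed at or below 3 counts. Prss8 (prostasin), Prss16 (thymus-specific serine protease), Prss23, Prss32 and Prss33 rose above 3 counts in some library and had at most 16. Because Prss1, Prss2 and Prss3 are related genes, reads could be split or lost between them, which was not tested.

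In WT the 25 tested members spanned 0.0939 to 120.4 TPM (counts scaled to gene length and library size). Prss39, also called TESP1, an acrosomal protein, had the highest level, 120 ± 41.5 TPM (SD, n = 6), and its lowest library, 70.2 TPM, lay above the highest of the next member. That level was above that of 98.5% of all tested genes. Prss37, which has no serine motif and is needed in males for sperm migration into the oviduct, followed with 52.0 ± 7.28 TPM. Prss46 had 47.0 ± 3.02 TPM, Prss58, also called trypsin X3, 40.2 ± 5.49 TPM, and Prss21 (testisin), a protease with a lipid anchor, 35.4 ± 4.23 TPM. From Prss37 down to Prss45 at rank 13 each member overlapped the next in its WT range. Below rank 13 the ranges separated only between Prss45 and Prss56, between Prss48 and Prss38, and between Prss50 and Prss36. The lowest levels were those of Prss35, Prss53 and Prss12 (neurotrypsin), at 0.182, 0.126 and 0.0939 TPM. The place of Prss53 rests on its length, since only 498 of its 2134 exon bases could be counted, and over those its WT level was 0.539 TPM, at rank 21 in place of 24.

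**Figure D1:**
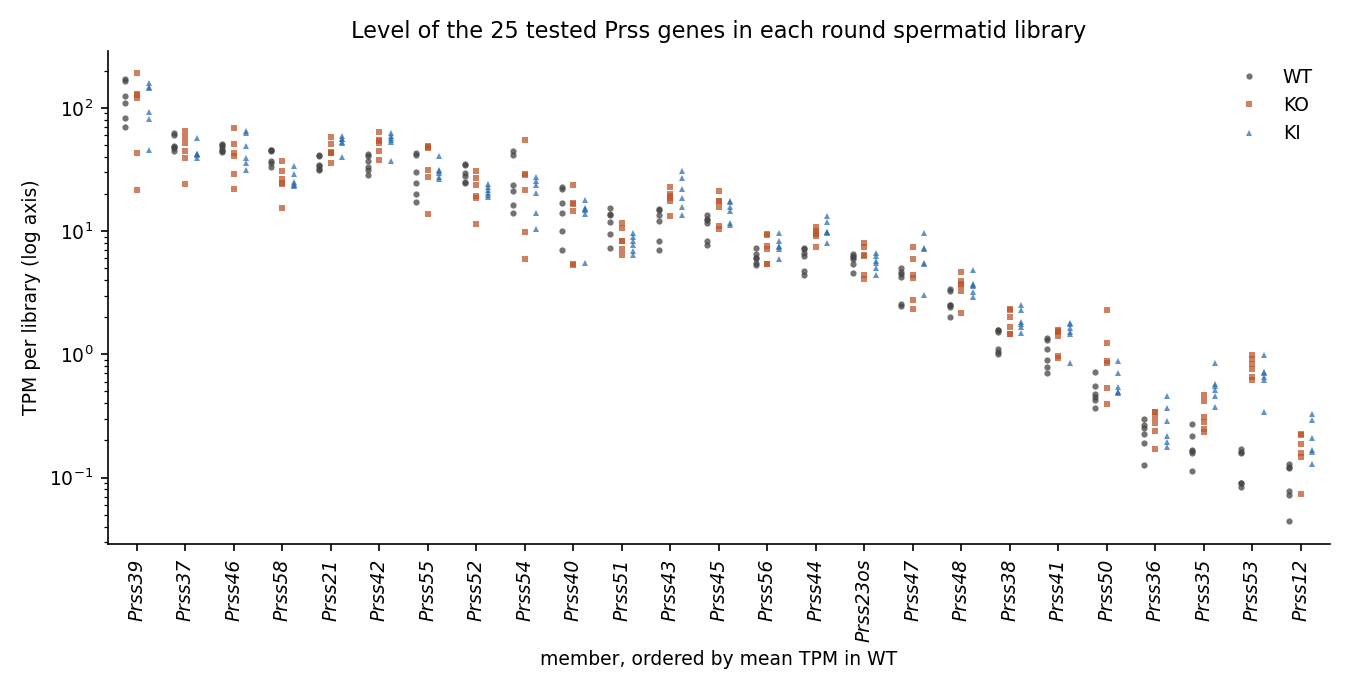
TPM of each tested Prss gene (log axis) in every library, with members ordered by their mean in WT. Grey circles are WT, orange squares KO and blue triangles KI, 6 libraries each. Prss39 stands at the top, at 120 TPM in WT, and the KO and KI points of Prss53, like those of Prss44 with a narrower gap, all lie above the WT points.

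The summed level of all members was 495 ± 100 TPM in WT, 495 ± 158 in KO and 505 ± 93.7 in KI, and the ranges overlapped. The sum depended on the scale. In CPM scaled with TMM factors, as in the tests, it was 842 ± 56.4 in WT, from 753 to 899.7, against 666 ± 97.0, from 497 to 738, for KO and 663 ± 75.1, from 566 to 749, for KI, with all mutant libraries below WT. The TPM sum is not scaled with TMM factors and weighs short genes more. The 5 members with the highest WT level made 59.9% of that sum in WT, 53.1% in KO and 55.3% in KI. Single members did differ between genotypes, in both directions.

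Against WT, KO libraries had 6 members lower and 2 higher at an adjusted p below 0.1 (edgeR's quasi-likelihood test, Benjamini-Hochberg adjustment over all 21058 tested genes). The 6 were Prss37, Prss40, Prss46, Prss51, Prss52 and Prss58, which is 24% of the 25 tested members beside 13.5% of all tested genes that were lower. The 2 were Prss44 and Prss53, 8% of members beside 16.4% of all genes that were higher. In KI against WT, 8 members were lower, the same 6 with Prss23os and Prss54, which is 32.0% beside 15.4% of all genes. Prss35, Prss43, Prss44 and Prss53 were higher in KI, which is 16% of members beside 16.1% of all genes. Both comparisons use the same 6 WT libraries, so their values are not independent of each other. The median log2 fold change of the 25 members was -0.05 in KO and -0.07 in KI, beside 0.03 and 0.05 over all tested genes, and its sign was not stable. The KO median turned to 0.02 without WT 3 and to 0.01 without KO 1, and the KI median to 0.03 without WT 3, with lower positive values without KI 6, in DESeq2, with no filter and with close pairs summed.

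Only Prss53 in KO passed the stricter test of a change larger than 1 log2 unit (edgeR's glmTreat), which is 4% of members beside 0.598% of all genes higher. No member was lower by that test in KO, with 0 at an unadjusted p below 0.05, beside 1.13% of all genes. In KI none was higher, with 1 at an unadjusted p below 0.05, beside 0.522% of all genes, and none was lower, with 0 unadjusted, beside 1.43%. DESeq2 also gave 1 higher member in KO and 0 in the other 3 of these counts.

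**Figure D2:**
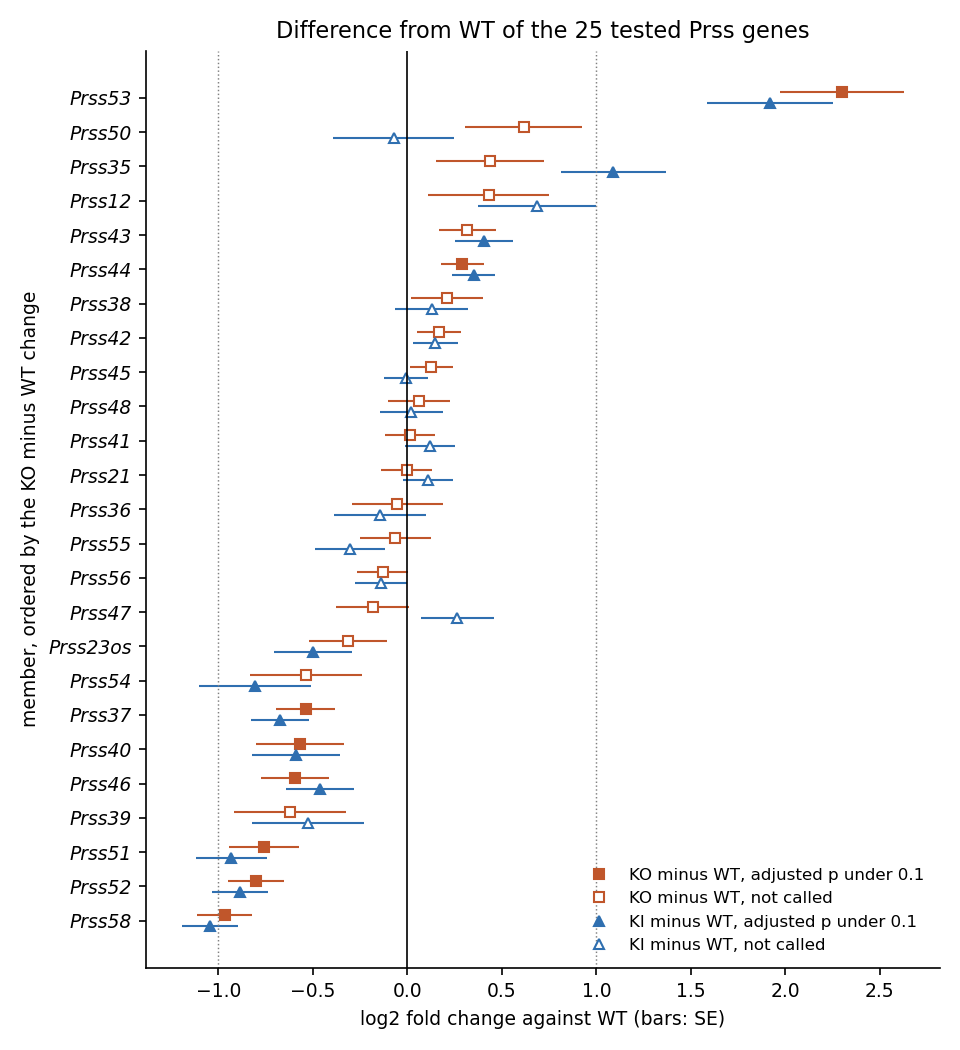
Log2 fold change of KO (orange squares) and KI (blue triangles) against WT for the 25 tested members, ordered by the KO value, with bars for the SE. Filled symbols passed an adjusted p of 0.1 and dotted lines mark 1 log2 unit, a bound that only Prss53 exceeds in KO, while Prss53, Prss35 and Prss58 lie beyond it in KI.

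Prss58 showed the largest fall in both mutants with all libraries used, and without KI 4 Prss51 fell by as much in KI. Its lowest, median and highest levels were 41.4, 48.4 and 55.0 CPM in WT, 17.6, 25.3 and 31.7 in KO, and 19.2, 22.8 and 29.1 in KI. In CPM all mutant libraries lay below all WT libraries, while in TPM, which is not scaled with TMM factors, the ranges overlapped, at 33.2 to 45.4 in WT, 15.5 to 37.3 in KO and 23.2 to 33.5 in KI. The log2 fold change was -0.97 (SE 0.15) in KO, with an adjusted p of 4.16e-05 in edgeR's quasi-likelihood test. In KI it was -1.04 (SE 0.15), with an adjusted p of 1.40e-05, and -1.11 (SE 0.15) without the library labelled KI 4. The gene lies on the minus strand of chromosome 6 (ENSMUSG00000051936, chr6:40895270-40900387, GRCm38), between Prss37 and the trypsin genes.

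Prss37 lies in the same part of chromosome 6 (chr6:40514824-40519508) and also fell. It had 56.9, 70.8 and 87.5 CPM as its lowest, median and highest levels in WT, 33.3, 50.8 and 62.8 in KO, and 37.1, 42.7 and 59.7 in KI. In CPM the ranges touched through the highest mutant libraries, and in KI the overlap came from the library labelled KI 4 alone. In TPM both mutants overlapped WT, at 44.8 to 62.1 in WT, 24.1 to 64.5 in KO and 39.04 to 57.2 in KI. Its log2 fold change was -0.54 (SE 0.16) in KO with an adjusted p of 0.0142 (edgeR). It was -0.67 (SE 0.16) in KI with an adjusted p of 0.00252, and -0.77 (SE 0.16) without KI 4. The trypsin genes of the same chromosome, Prss1, Prss2 and Prss3, stayed near the floor.

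On chromosome 14, Prss51 and Prss52 fell and their neighbour Prss55 did not pass the test. Prss52 (chr14:64104286-64113755) had 33.4, 38.7 and 42.0 CPM as its lowest, median and highest levels in WT, 14.9, 22.4 and 28.5 in KO, and 17.02, 20.04 and 27.3 in KI. In CPM all mutant libraries lay below all WT libraries, and in TPM the KI libraries did and the KO libraries overlapped WT. On the log2 scale the difference from WT was -0.80 (SE 0.15) in KO and -0.89 (SE 0.15) in KI, with adjusted p-values of 0.000381 and 0.000118 (edgeR). Without KI 4 the KI difference was -0.98 (SE 0.15). Prss51 (chr14:64086234-64097678) had 14.1, 17.9 and 20.7 CPM in WT, 6.54, 10.8 and 13.2 in KO, and 6.71, 8.76 and 15.1 in KI. In CPM the KO libraries all lay below WT, and so did the KI libraries other than KI 4. In TPM both mutants overlapped WT, at 7.29 to 15.5 in WT, 6.36 to 11.6 in KO and 6.38 to 9.61 in KI. The log2 difference was -0.76 (SE 0.19) in KO and -0.93 (SE 0.19) in KI, with adjusted p-values of 0.00472 and 0.000775 (edgeR), and -1.12 (SE 0.17) in KI without KI 4.

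Prss55, a sperm protease with a lipid anchor that males need for fertility, is read from the opposite strand and overlaps the span of Prss51 without sharing exon bases. WT libraries had 49.2 ± 10.6 CPM of it (SD, n = 6), against 47.1 ± 13.9 and 39.9 ± 6.42 CPM in KO and KI. Its log2 fold change was -0.06 (SE 0.19) in KO and -0.30 (SE 0.19) in KI, with adjusted p-values of 0.862 and 0.262 (edgeR). The 3 genes with an AG serine codon in this cluster did not all pass, and the difference between Prss55 and its neighbours was not tested.

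**Figure D3:**
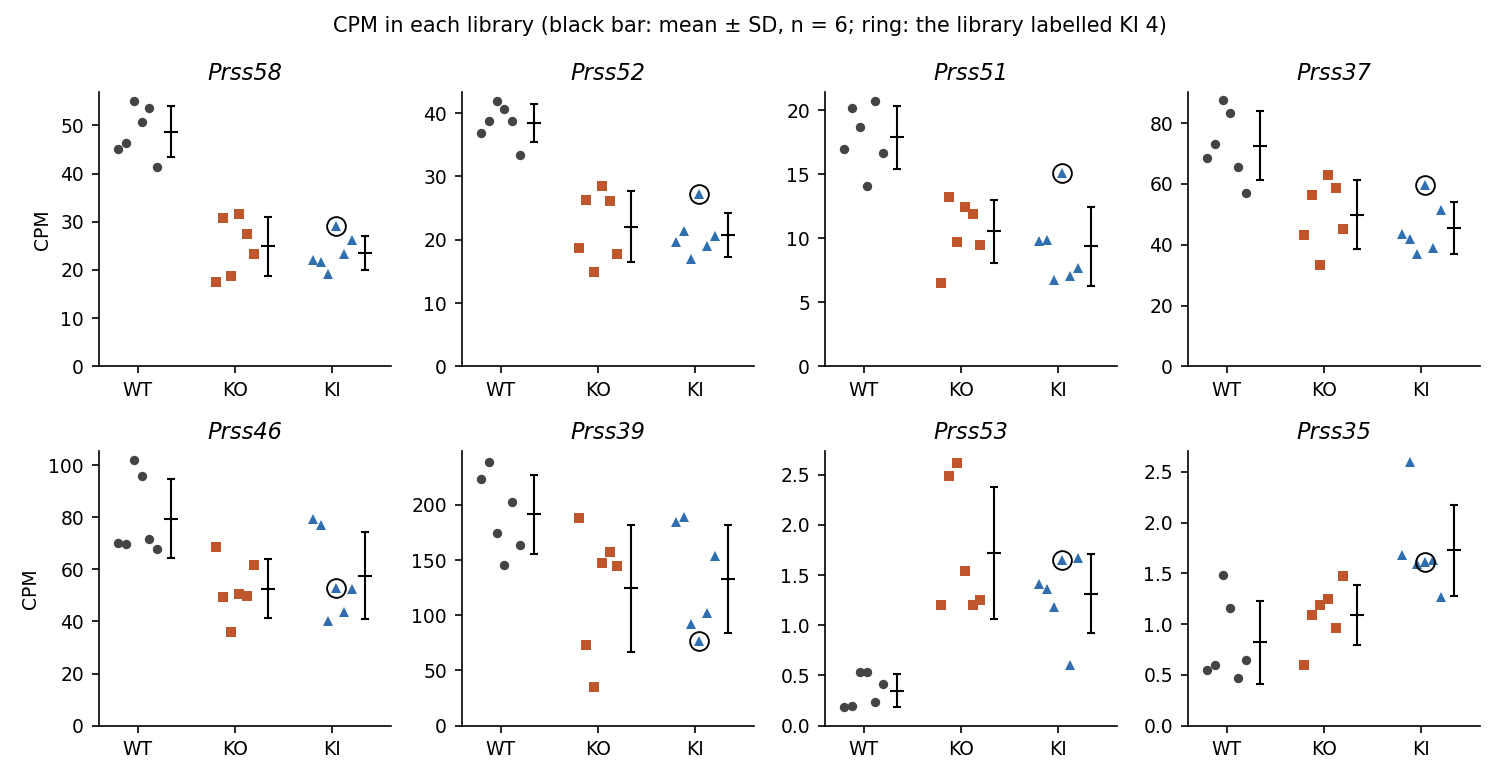
CPM of 8 members in each library, with the mean and SD of 6 libraries per genotype as black bars and a ring around the library labelled KI 4. Prss58 and Prss52 are below all WT libraries in both mutants, Prss53 is above all of them, and Prss39 and Prss35 overlap WT.

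The chromosome 9 cluster holds Prss42, Prss44, Prss43, Prss45, Prss46 and Prss50 in this order, all on the plus strand. Members of this one cluster moved in opposite directions. Prss46 (chr9:110844506-110856522) had 67.6, 70.7 and 102 CPM as its lowest, median and highest levels in WT, 36.1, 50.01 and 68.5 in KO, and 40.3, 52.6 and 79.3 in KI. In CPM the KO range reached just into the WT range, and the KI range went further into it, through KI 1 and KI 2. In TPM the means were 47.0 in WT, 42.3 in KO and 46.9 in KI, and both mutants overlapped WT. The log2 fold change was -0.59 (SE 0.18) in KO with an adjusted p of 0.0188 (edgeR), or 0.103 with close library pairs summed, which ends the call, and -0.46 (SE 0.18) in KI with an adjusted p of 0.0630. Without KI 4 the KI value was -0.44 (SE 0.19) and the call was lost, with an adjusted p of 0.107. It was also lost without WT 3, WT 4, KI 3, KI 5 or KI 6, and leaving out each library in turn gave 0.0228 to 0.192 (edgeR).

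Prss44, also called TESSP-4, rose in both mutants by a small amount. It had 23.1, 25.9 and 29.2 CPM as its lowest, median and highest levels in WT, 25.9, 31.9 and 39.4 in KO, and 27.9, 33.7 and 39.1 in KI. In CPM the mutant libraries were mostly above WT, with overlap, and in TPM all of them were above WT. TPM is not scaled with TMM factors, and its mutant means were also higher for uncalled neighbours. Prss42 had mean levels of 35.4 TPM in WT, 51.2 in KO and 53.7 in KI, and Prss45 11.03, 15.6 and 14.6. The log2 fold change of Prss44 was 0.29 (SE 0.11) in KO and 0.35 (SE 0.11) in KI, with adjusted p-values of 0.0688 and 0.0267 (edgeR). Without KI 4 the KI value was 0.33 (SE 0.12), with an adjusted p of 0.05015 (edgeR). With close library pairs summed both calls were lost, at 0.281 and 0.246. The KO call was lost without WT 1, WT 2, WT 3, WT 4, KO 2, KO 3 or KO 6, with adjusted p-values of 0.0296 to 0.170 over the libraries left out in turn. Prss43 (TESSP-3), 2167 bases from Prss44, rose in KI by 0.41 (SE 0.15) on the log2 scale, from 33.3 ± 6.46 to 44.2 ± 9.82 CPM, with an adjusted p of 0.0550 (edgeR). That call was lost without WT 2, WT 4, KI 3 or KI 5 (0.0255 to 0.152 over all libraries left out in turn). Without KI 4 the KI rise of Prss43 was 0.44 (SE 0.16), with an adjusted p of 0.0529 (edgeR). In KO it had 41.5 ± 6.53 CPM and an adjusted p of 0.144, or 0.0721 to 0.354 with a library left out, and it passed without WT 5 or KO 1.

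The other 3 genes of the cluster did not pass in either mutant with all libraries used. Prss42 (TESSP-2) had 69.5 ± 10.3 CPM in WT against 78.0 ± 10.1 in KO and 77.1 ± 6.397 in KI. Prss45, with the proline codon, had 16.6 ± 1.27, 18.1 ± 1.40 and 16.5 ± 2.87 CPM. Prss50, also known as TSP50, was low at 0.884 ± 0.105, 1.37 ± 0.662 and 0.840 ± 0.404 CPM, and passed as higher in KO only without KO 6, with an adjusted p of 0.0540 (edgeR). Prss45 lies 3193 bases from Prss46, with log2 fold changes of 0.13 in KO and -0.01 in KI.

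**Figure D4:**
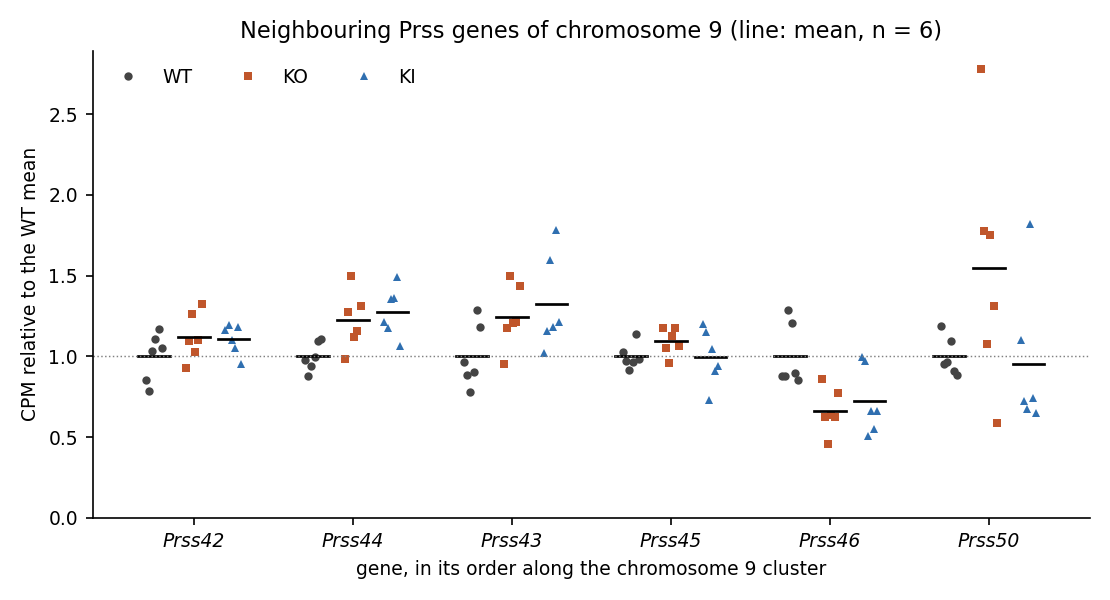
CPM of the 6 chromosome 9 genes in each library, divided by the WT mean of the gene, in their order along the chromosome. Black lines are means of 6 libraries. Prss46 lies below 1 in the KO libraries while Prss44 and Prss43 lie mostly above it in the mutants, and Prss50, at 0.884 CPM in WT, scatters most.

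Prss39 and Prss40 (TESP1 and TESP2) are acrosomal proteins encoded on opposite strands of chromosome 1. Prss39 had 146, 189 and 239 CPM as its lowest, median and highest levels in WT, 35.3, 146 and 188 in KO, and 76.5, 128 and 189 in KI. The low KO values were those of KO 2 and KO 3, and the groups overlapped. On the log2 scale the difference from WT was -0.62 (SE 0.30) in KO and -0.53 (SE 0.30) in KI, and neither passed, with adjusted p-values of 0.141 and 0.215 (edgeR). Prss40 had a difference of like size with a smaller SE, -0.57 (SE 0.23) in KO and -0.59 (SE 0.23) in KI, and adjusted p-values of 0.0844 and 0.0691 (edgeR). Its level was 38.3 ± 10.2 CPM in WT against 25.9 ± 9.54 in KO and 25.5 ± 5.52 in KI. In TPM the means of Prss40 were closer, at 15.4 in WT, 13.7 in KO and 13.7 in KI, and both mutants overlapped WT. Without KI 4 the KI call for Prss40 was lost, with an adjusted p of 0.146, and so it was without WT 1, WT 2, WT 3 or WT 5 (0.0326 to 0.160 over all libraries left out in turn). The KO call was lost without WT 1, WT 2, WT 5, KO 2, KO 3 or KO 6 (0.0368 to 0.187). Prss39 passed in KO without KO 1, with an adjusted p of 0.0697 (edgeR), and in KI without KO 3, with 0.0943.

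Mitochondrial transcripts took 19.3% and 23.6% of the counts of KO 2 and KO 3, and 17.2% to 19.4% of those of KI 3, KI 4 and KI 5, against 7.89% to 13.5% in the other libraries. KI 3, KI 4 and KI 5 were also the KI libraries with the lowest Prss39 level. The part of RNA quality in these differences was not tested.

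Prss54, an acrosomal protein without the serine motif, had 43.4, 54.3 and 94.1 CPM as its lowest, median and highest levels in WT, 14.5, 44.6 and 80.9 in KO, and 23.6, 37.7 and 47.4 in KI. The groups overlapped. The log2 difference was -0.54 (SE 0.30) in KO and -0.81 (SE 0.30) in KI, with adjusted p-values of 0.213 and 0.0512 (edgeR), and the KI call was lost without KI 4, with an adjusted p of 0.101, as it was without WT 1, WT 2 or KI 3 (0.0179 to 0.135 over all libraries left out in turn). It passed in KO without KO 1, with an adjusted p of 0.0413. The antisense RNA Prss23os fell in KI by 0.50 (SE 0.21) on the log2 scale, from 11.7 ± 3.33 to 8.29 ± 2.46 CPM, with an adjusted p of 0.0849 (edgeR). The call was lost without WT 3, WT 4 or any one KI library but KI 4 (0.0138 to 0.271 over all libraries left out in turn). Without KI 4 all its KI libraries lay below WT in CPM. In TPM its means were close, at 5.80 in WT, 6.10 in KO and 5.57 in KI, and both mutants overlapped WT. It shares 54.3% of its exon bases with Prss23 on the opposite strand, a gene with 3 to 16 counts, and the counting used strand.

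Prss53 (polyserase-3), which is named for several protease domains in one chain, was the member with the largest rise. Its lowest, median and highest levels were 0.183, 0.325 and 0.533 CPM in WT, 1.20, 1.40 and 2.61 in KO, and 0.608, 1.39 and 1.67 in KI. All mutant libraries lay above all WT libraries, on low counts of 4 to 11 in WT, 22 to 57 in KO and 13 to 41 in KI. The log2 fold change was 2.30 (SE 0.33) in KO, with an adjusted p of 2.07e-05 for any change (edgeR's quasi-likelihood test) and 0.0261 for more than 1 log2 unit (edgeR's glmTreat). In KI it was 1.92 (SE 0.33), with 0.000163 and 0.232 for the same tests, and 1.85 (SE 0.35) without KI 4.

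The position of Prss53 limits what its counts cover. On the minus strand of chromosome 7 (ENSMUSG00000044139, chr7:127885841-127890970), 1636 of its 2134 exon bases are shared with the same-strand gene model Gm21974, which had 0 counts in every library. As run, featureCounts drops reads that overlap more than 1 gene, so reads are counted where they touch only the remaining 498 bases, 23.3%. These are a stretch of 386 at the 3′ end (chr7:127885841-127886226) and one of 112 at the 5′ end (chr7:127890859-127890970). Its TPM was computed over all 2134. Of the exon bases, 156 overlap Zfp646 on the opposite strand, a zinc finger gene with 8449 to 20342 counts per library. Zfp646 had 459 ± 58.1 CPM in WT against 530 ± 94.4 in KO and 621 ± 168 in KI, with log2 fold changes of 0.21 and 0.44 and adjusted p-values of 0.412 and 0.0550 (edgeR). Whether reads from Zfp646 added to the Prss53 counts was not tested.

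Prss35, a member without the serine motif, rose in KI. It had 0.474, 0.623 and 1.49 CPM as its lowest, median and highest levels in WT, 0.600, 1.14 and 1.47 in KO, and 1.27, 1.62 and 2.59 in KI. In CPM most KI libraries lay above WT and KO overlapped WT fully. Its log2 fold change was 1.09 (SE 0.28) in KI with an adjusted p of 0.00543 (edgeR), and 1.11 (SE 0.29) without KI 4. In KO it was 0.44 (SE 0.28) with an adjusted p of 0.302, or 0.0896 without WT 3 (edgeR).

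The remaining tested members gave no call in either mutant. Prss21 had 48.5 ± 8.98 CPM in WT against 48.4 ± 7.88 in KO and 52.4 ± 5.46 in KI, and its log2 fold change was 0.00 (SE 0.13) in KO and 0.11 (SE 0.13) in KI. Prss41 (TESSP-1), close to Prss21 on chromosome 17, had 3.21 ± 0.313, 3.24 ± 0.279 and 3.49 ± 0.359 CPM. Of the 10 members on chromosome 17 these were the only 2 with enough counts to be tested. Prss12, Prss36, Prss38, Prss47, Prss48 and Prss56 had log2 fold changes between -0.18 and 0.43 in KO and between -0.14 and 0.69 in KI. The largest of these, Prss12 in KI, had an SE of 0.31 and an adjusted p of 0.119 (edgeR), and passed without WT 3, with 0.0396.

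Set against the serine motif, 3 of the 15 tested members with it were lower in KO (20%, beside 13.5% of all tested genes) and the same number in KI (beside 15.4%), namely Prss40, Prss51 and Prss52. Of the 9 tested coding members without it, 3 were lower in KO (33.3%) and 4 in KI (44.4%), namely Prss37, Prss46 and Prss58, with Prss54 in KI. Of the 15 with the motif, 2 were higher in KO and in KI (13.3%), namely Prss44 and Prss53. Of the 9 without it, 0 were higher in KO and 2 in KI (22.2%), namely Prss35 and Prss43. Of all tested genes 16.4% were higher in KO and 16.1% in KI. These are counts of few genes, and a difference between the groups was not tested.

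KI and KO were not told apart at any member. None of the 25 was higher in KI than in KO (2 at an unadjusted p below 0.05, Prss35 and Prss47), beside 0.0760% of all genes, and none was lower (1 unadjusted, Prss50), beside 0.0237%. For more than 1 log2 unit none was higher or lower, with 0 unadjusted in either direction, beside 0.00475% and 0.00% of all genes, and DESeq2 gave 0 for all 4 counts. Without KI 4 these counts were also 0, with 2 higher (Prss35 and Prss47) and 2 lower (Prss50 and Prss51) at an unadjusted p below 0.05 and 0 for more than 1 log2 unit. Over all genes the shares higher and lower in KI went up to 0.282% and 0.240% without it. The log2 differences of KI from KO ranged from -0.69 for Prss50 (SE 0.31) to 0.65 for Prss35 (SE 0.27), and without KI 4 from -0.98 (SE 0.30) to 0.67 (SE 0.28) for the same genes, with adjusted p-values of 0.247 and 0.471 (edgeR). The log2 difference was -0.08 (SE 0.15) for Prss58 and -0.38 (SE 0.28) for Prss53. A missed threshold does not show that the levels were alike.

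Promoters of 300 bases, 250 before and 50 after the start, were available from RefSeq on GRCm38.p6 for 18 of the tested members, as 19 sequences. Motifs that spermatid regulators are known to bind were searched for on both strands: TGACGTCA and its shorter core TGACG, bound by CREM, GTTGCC, a core bound by RFX factors, and ACAAT, the core bound by SOX factors. No promoter was available for the tested members Prss23os, Prss43, Prss44, Prss48, Prss51, Prss52 and Prss55. None of the 19 sequences held TGACGTCA, which 1.79% of all 32851 promoters held. The core TGACG was in 2 of the 19 (10.5%), those of Prss35 and Prss38, beside 20.8% of all. GTTGCC was in 3 (15.8%), those of Prss21, Prss46 and Prss47, beside 12.5%, and ACAAT in 9 (47.4%) beside 31.0%. Of those 9, 2 were nearly identical sequences of Prss50, which share the same match. Promoters of Prss46 (chr9:110844256-110844555, plus strand) and Prss53 (chr7:127890921-127891220, minus strand) are shown as those of a member that fell and of the one that rose most. Capitals mark ACAAT and GTTGCC or their reverse complements, and in Prss46 the latter lies at position -116 from the start.
Prss46 promoter: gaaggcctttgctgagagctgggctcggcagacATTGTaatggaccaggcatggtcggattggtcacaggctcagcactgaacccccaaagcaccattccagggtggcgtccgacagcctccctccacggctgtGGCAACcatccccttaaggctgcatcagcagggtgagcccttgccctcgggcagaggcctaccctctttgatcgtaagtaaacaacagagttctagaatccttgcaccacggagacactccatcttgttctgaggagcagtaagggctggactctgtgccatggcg
Prss53 promoter: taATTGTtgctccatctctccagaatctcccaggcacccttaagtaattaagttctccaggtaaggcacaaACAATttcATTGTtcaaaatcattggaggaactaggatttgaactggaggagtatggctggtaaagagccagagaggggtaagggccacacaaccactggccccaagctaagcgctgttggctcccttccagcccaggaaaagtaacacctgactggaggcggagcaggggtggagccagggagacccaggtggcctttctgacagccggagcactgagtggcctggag
Prss58, which also fell, held none of these letters in its window. A match is a run of letters and not a shown binding site.

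Genes that work beside the Prss proteins were read from fixed lists. Of 15 acrosomal matrix and membrane genes, 2 were lower in KO (13.3%, beside 13.5% of all tested genes) and 5 in KI (33.3% beside 15.4%) by edgeR's quasi-likelihood test, with a median log2 fold change of -0.12 and -0.34, and none was higher, with 1 at an unadjusted p below 0.05 in KO and 0 in KI. The hyaluronidase Spam1 fell from 162 ± 36.4 CPM in WT to 95.6 ± 12.5 in KO and 78.8 ± 17.3 in KI, and Zp3r, an acrosomal protein of egg coat binding, from 94.2 ± 17.3 to 59.1 ± 22.7 and 47.9 ± 8.74. Spaca7 was lower in KI, by 0.70 (SE 0.25) on the log2 scale. Of 14 genes for maturation of the sperm protein ADAM3, the process in which Prss37 and Prss55 take part, 3 were lower in KO (21.4% beside 13.5% of all tested genes) and 4 in KI (28.6% beside 15.4%) by the same test, and none was higher, with 1 at an unadjusted p below 0.05 in KO and 0 in KI. The median log2 fold change was 0.01 in KO and -0.14 in KI. Ace, the angiotensin-converting enzyme of which sperm carry a testis form, fell from 545 ± 79.6 CPM to 188 ± 64.1 and 168 ± 27.7, with log2 fold changes of -1.54 (SE 0.20) and -1.70 (SE 0.21). Calr3, a testis chaperone, had log2 fold changes of -0.60 (SE 0.16) and -0.83 (SE 0.16), and Pmis2 was lower in KI, at -0.71 (SE 0.22).

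Of 81 genes for serine protease inhibitors, 19 were tested. In KO 6 were higher (31.6%, beside 16.4% of all tested genes) and 1 lower (5.26% beside 13.5%). In KI 7 were higher (36.8% beside 16.1%) and 2 lower (10.5% beside 15.4%), with medians of 0.33 and 0.26 over the 19 on the log2 scale. Serpina3a fell from 0.781 ± 0.240 CPM in WT to 0.139 ± 0.0731 in KO and 0.0877 ± 0.0412 in KI. Serpinb1a rose from 0.0841 ± 0.0535 CPM to 0.618 ± 0.313 and 0.620 ± 0.342, and both are low levels. Spint1, an inhibitor on the cell surface, was higher in KO, at 2.36 ± 0.280 CPM against 1.62 ± 0.263 in WT, and Serping1, the C1 inhibitor of complement, in KI, at 2.34 ± 0.834 against 1.55 ± 0.356. Serpinb6c was lower in KI, at 0.848 ± 0.213 CPM against 1.36 ± 0.695 in WT, and had 1.08 ± 0.356 in KO. Of 63 other trypsin-fold proteases, 18 were tested, with 5 higher (27.8% beside 16.4% of all tested genes) and 6 lower (33.3% beside 13.5%) in KO. In KI 3 were higher (16.7% beside 16.1%) and 6 lower (33.3% beside 15.4%), with KO and KI medians of -0.02 and -0.04 on the log2 scale. The kallikrein gene Klk1b8 fell from 35.2 ± 2.77 CPM to 6.35 ± 1.51 and 5.68 ± 1.83, its relative Klk1b3 had a log2 fold change of -2.46 (SE 0.28) in KI, and the granzyme gene Gzmn fell from 19.6 ± 6.30 to 6.84 ± 4.87 and 4.85 ± 1.61. Tmprss15, which encodes enteropeptidase, the activator of trypsinogen, rose by 1.86 (SE 0.32) on the log2 scale in KO, to 1.59 ± 0.436 CPM. Between KI and KO no gene of these 4 lists passed, with 0 at an unadjusted p below 0.05 higher in KI and 3 lower.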

How the data were processed

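RNA of round spermatids was sequenced in 18 libraries, prepared per the labels with a Takara Pico kit without selection for poly(A). The deposited counts were made by the authors with featureCounts of Subread 2.0.1, by strand, on GENCODE M18, after trimming (cutadapt 3.4) and alignment (STAR 2.7.8a) to GRCm38. These are whole, unnormalized counts per gene, deposited with each gene's exon length (the other unit used, in bases). Marked duplicates were kept, so counts can hold PCR copies. Symbols and coding sequences came from GENCODE M21, promoters from RefSeq. 0 columns were left without a library.

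Counts were filtered with filterByExpr and scaled with TMM in edgeR 4.0.16 (R 4.3.3), and all libraries entered 1 quasi-likelihood model with genotype as the term, using glmQLFTest for any change and glmTreat for a change over 1 log2 unit, called at a Benjamini-Hochberg adjusted p below 0.1. glmTreat used its worst-case null. CPM are TMM-scaled, TPM use the deposited lengths. The method was tested on simulated data. The floor of 3 counts was 0.112 to 0.160 CPM, which covers counting error only. Alternatives were DESeq2 1.42.0, other scalings, filters and thresholds, a replicate block, summed close pairs and leaving out each library. Figures were drawn with matplotlib in Python.

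Named members were those past 1 log2 unit, the 5 largest called changes in KO and in KI, any called between KI and KO, and the 5 with the highest WT TPM, and from each list the called genes with the 2 largest changes and the 2 highest levels. The other members described were chosen after their values were seen. The members and lists were chosen with earlier results of these data known.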

Additional observations from a re-analysis of the deposited data

Results flagged for a closer look

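Of 27 groups of 6 libraries, 3 for each of the 9 members named by rule, 1 held a library apart from the rest. Prss35 had 2.59 CPM in KI 2, against 1.27 to 1.68 in the other KI libraries, a gap of 0.690 of the whole range of the group. Chance flags about 5% of such groups by this measure (Dixon's 95% limit), so 1 of 27 is not a pattern. The KI call for Prss35 was kept when each library was left out in turn, with adjusted p-values of 0.000717 to 0.0179 (edgeR's quasi-likelihood test).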

How the results depend on the processing

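Under all the alternatives run, Prss37, Prss51, Prss52, Prss53 and Prss58 kept their calls and directions in KO and KI, as did Prss35 in KI, wherever the gene passed the filter. Prss53 was not tested with at least 10 counts in every library. The 2 members higher in KO became 1 with DESeq2's size factors, with at least 10 counts in every library, at an adjusted p below 0.05 and with close pairs summed, and were 1 to 3 when 1 library was left out. The count was 1 without WT 1, WT 2, WT 4, KO 2 or KO 3, and 3 without WT 5 or KO 1. The 1 KO member past 1 log2 unit became 0 with at least 10 counts in every library and with close pairs summed. With close pairs summed, which leaves 3 WT, 5 KO and 4 KI values, the 4 members higher in KI became 2 and the 8 lower became 4, and the 6 lower in KO became 4, without Prss40 and Prss46. At an adjusted p below 0.05 the 8 became 4, and they were 5 to 9 when 1 library was left out, with 5 without WT 3, KI 3 or KI 4. The count of KI members higher by more than 1 log2 unit went from 0 to 1 without KI 5 (0 to 1 over the libraries left out), and to 1 with the interval null of glmTreat, an alternative chosen after seeing the data. That 1 was Prss53. DESeq2 added Prss2, which was not tested in edgeR, to the higher members, and the fit without a filter added Prss2 and Prss22 in KO and lost Prss44. The causes were not tested.

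Of 18 pairs of libraries with the same number, 7 had a correlation of deviations over 0.1, with a range of -0.50 to 0.54. These values showed no consistent pairing by number, but they cannot exclude it for some libraries. With the replicate block, 8 members were lower in KO in place of 6, 2 higher in KO, 8 lower and 4 higher in KI, and 0 differed between KI and KO.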
